A study of Homo sapiens with 6 samples.

Results

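Chromatin accessibility was examined around 10 genes that NF-κB is known to control, out of 20033 protein-coding genes, in MCF10A cells whose labile Zn2+ was lowered or raised. The genes were chosen by name: the chemokines CXCL1, CXCL2, CXCL3, CXCL8 and CCL20, the cytokines IL1A, IL1B and IL6, and the feedback inhibitors NFKBIA and TNFAIP3. MCF10A cells are a human breast epithelial line that does not form tumours, wild type by its label, and every group was kept in phosphate-free buffered salt solution for 30 min before treatment. Cells then received 50 µM TPA, a cell-permeable Zn2+ chelator, 30 µM ZnCl2 or nothing (Control) for a further 30 min, and 2 ATAC-seq libraries were made per condition, 6 in all. ATAC-seq marks DNA that Tn5 transposase can reach. The methods call the replicates biological and the results text calls them technical, so a p-value here measures the spread between libraries, which may be technical.

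NF-κB is a family of dimeric transcription factors that IκB proteins hold in the cytoplasm. When the IKK kinases mark IκB for destruction, NF-κB enters the nucleus and binds κB sites near genes for chemokines and cytokines, which recruit and activate white blood cells. It also switches on its own inhibitors: NFKBIA encodes IκBα, which takes NF-κB back to the cytoplasm, and TNFAIP3 encodes A20, a zinc-finger protein that removes the ubiquitin signals upstream of IKK. Epithelial cells make several of these chemokines and cytokines in response to injury or microbes.

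An open region is a stretch that the authors' caller HMMRATAC marked as accessible in 1 library. Each carries a whole-number score of at least 30, and its percentile is the share of regions in the same list with a lower score, so that 0 is a region at the lowest score of its list. A place is its rank from the highest score of that list. A gene was counted as open at its start when a region covered the first base of its canonical transcript in GENCODE release 44, and its window was the gene body with 10 kb on either side. A region that overlapped a window was kept whole, so some regions extend past the window edge. The lists held no read counts, so depth is unknown, and a start without a call may lie under the score minimum. The lists differed in length, with 25031 and 44641 regions in Control, 35902 and 41376 in TPA and 38069 and 18887 in ZnCl2. Start sites of basal-like mammary markers such as LAMB3 and SFN were open in every library. Of 10 such markers, 8 or 9 were open in 5 libraries and 3 in the second ZnCl2 library, which is also the shortest list, and none of 8 markers of other cell types was open in any library. The start of the canonical transcript of TP63, a defining basal marker, was not covered in any library. Other starts of TP63 were not examined.

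A κB match was found in the promoters of 8 of the 10 members, all but IL1A and IL1B. Promoter sequences of 8 members are shown where each is described (not those of CXCL1 and IL1B), so that these matches can be read against its open regions. They are the bases upstream of the start site in the RefSeq promoter table (build GRCh38.p14), written 5′ to 3′ along the gene and ending where an annotated UTR begins. All 10 members matched this table. Capitals mark matches to the 10-letter κB consensus, to GGANNTTCC, to TGANTCA (the AP-1 site) or to TTGCNNAA (a C/EBP-like site), searched on both strands. In the window from 250 bases before to 50 bases after the start, 7 of 10 members held the κB consensus, against 11.3% of 34943 promoters, and 7 of 10 held GGANNTTCC, against 4.56%. The 2 forms share letters and often mark the same bases; 13.6% of all promoters held at least 1 of them. TGANTCA was found in CXCL8 and IL1A (7.72% of promoters), TTGCNNAA in CXCL2, IL1B and IL6 (10.5%), and TATAAA in CXCL8, CCL20, IL1A and NFKBIA (11.6%). A match is a string of letters and does not show that a factor was bound.

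**Figure D1:**
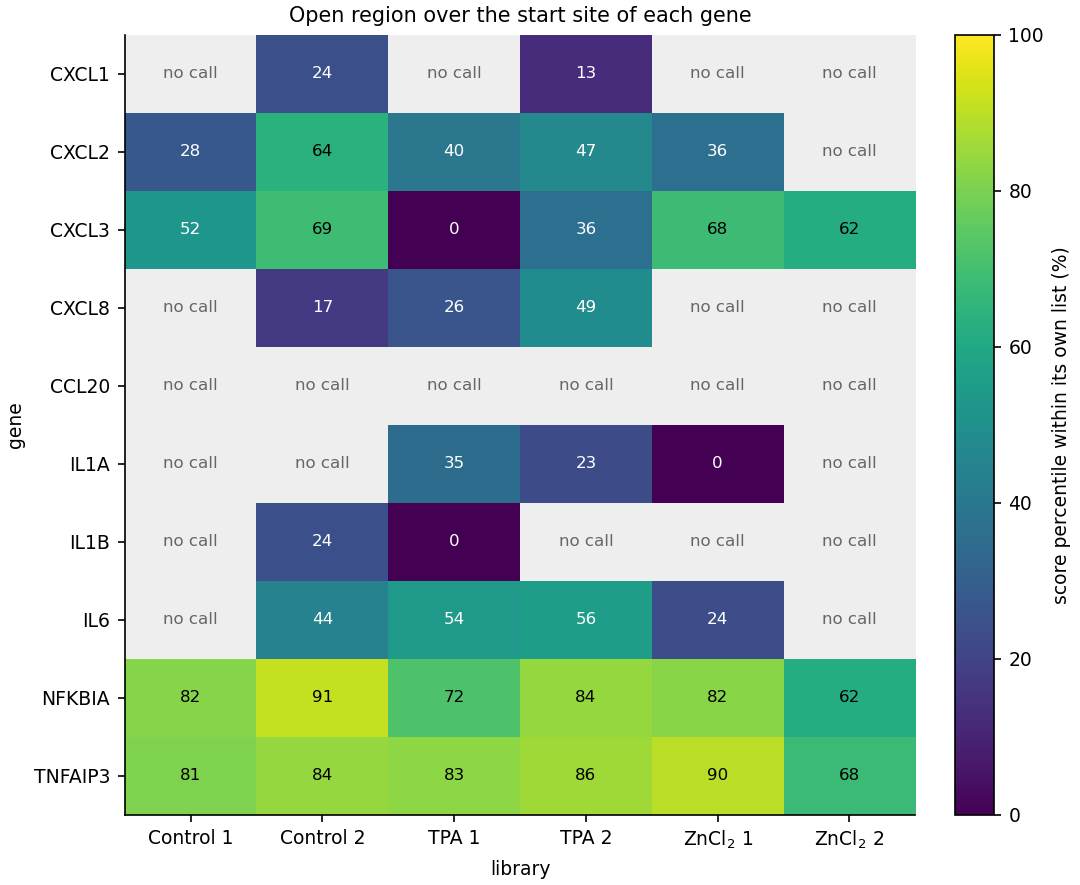
Score percentile (%) of the open region over the start site of each of the 10 genes (rows) in each of the 6 libraries (columns), with grey cells where no region was called. NFKBIA and TNFAIP3 sit at or above 62.1 in every library, and CCL20 has no call in any. With no call taken as lowest, CXCL8, IL1A and IL6 are higher in both TPA libraries than in both Control libraries, and CXCL3 is lower.

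The start sites fell into separate classes. CXCL3, NFKBIA and TNFAIP3 were open in all 6 libraries, which was the case for 43.0% of all protein-coding genes, and CCL20 was open in none, as were 36.9% of genes. The other 6 members were open in 2 to 5 libraries. In Control 4 and 8 members were open at their start, in TPA 8 and 8, and in ZnCl2 6 and 3. Of all protein-coding genes, 50.5% and 60.8% were open in Control, 54.5% and 56.5% in TPA and 59.6% and 46.3% in ZnCl2. Over all these genes TPA and ZnCl2 overlapped (55.5 ± 1.43% against 52.9 ± 9.39%, n = 2). The member counts of TPA and ZnCl2 libraries did not overlap, with a mean of 8 ± 0 (SD, n = 2) against 4.5 ± 2.12, which gave p = 0.33 in a two-sided exact permutation test. This is the smallest p that 2 libraries against 2 allow, so no comparison of libraries here could pass 0.05. Member counts of TPA and Control overlapped (8 ± 0 against 6 ± 2.83, n = 2, exact p = 1), and so did those of ZnCl2 and Control (exact p = 0.667, n = 2). The low counts belonged to the short lists, Control 1 and ZnCl2 2. When each list was cut to its 18887 highest-scoring regions, 4 and 4 members were open in Control, 3 and 3 in TPA and 3 and 3 in ZnCl2. The share of all genes open with these cut lists is not given here.

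The windows of the 10 genes, 264842 bp in all, held a larger open share in every library than the windows of all protein-coding genes. The share of their bases in open regions was 5.84% and 13.1% in Control, 12.9% and 9.82% in TPA, and 8.34% and 7.19% in ZnCl2, where all protein-coding windows gave between 1.90% and 4.77%. The members are shorter, with a median gene length of 4895 bp against 27471 bp, and the part of length in this difference was not tested. TPA exceeded ZnCl2 in both libraries (11.4 ± 2.19% against 7.76 ± 0.812%, n = 2, exact p = 0.33), and the Control libraries spanned both. The difference between TPA and ZnCl2 was 3.62 percentage points, but -0.541 with lists of equal length and -0.103 when the upper 50% by score was kept. Part of the TPA share came from a single call of 21500 bp at IL1A in the first TPA library.

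**Figure D2:**
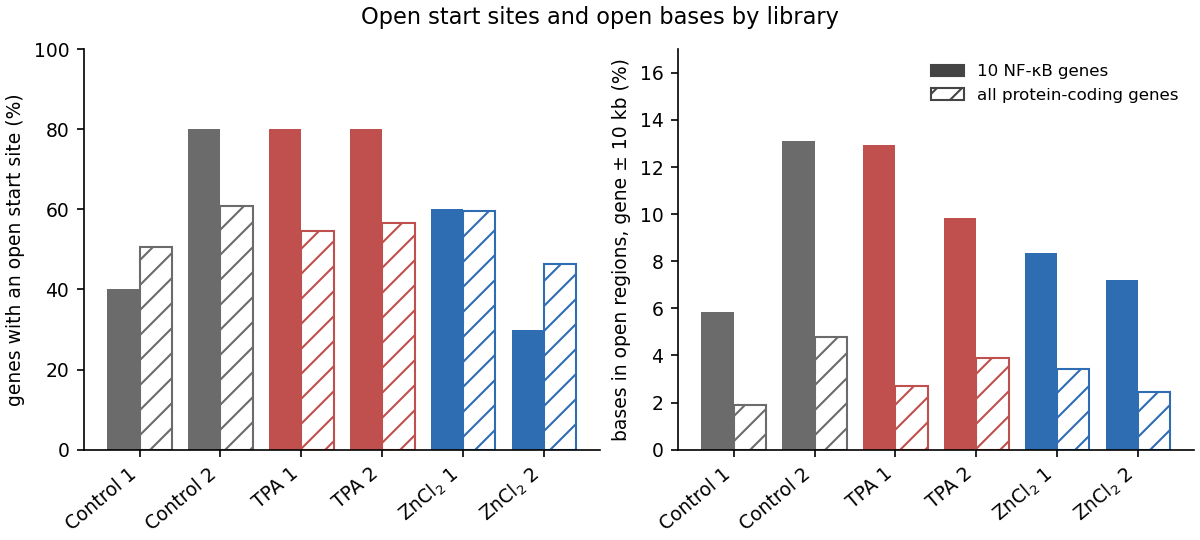
Left, share (%) of genes with an open start site, and right, share (%) of bases within a gene or 10 kb of it that lie in open regions, per library. Filled bars are the 10 NF-κB genes and hatched bars all protein-coding genes, and on the right the filled bar is the higher one in all 6 libraries.

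At their start, 3 members ranked higher in TPA than in Control. CXCL8, IL1A and IL6 lay above both Control libraries in both TPA libraries, 3 of the 9 members with a call in these libraries, where 10.7% of all protein-coding genes with a call did so. CXCL3 went the other way, 1 of 9 against 19.4% of genes. In ZnCl2 no member lay above both Control libraries (2.03% of genes did) and none below both (11.0% of genes). TPA lay above ZnCl2 at CXCL2, CXCL8, IL1A and IL6, 4 of 9 against 21.9% of genes, and ZnCl2 above TPA at CXCL3, 1 of 9 against 14.5%. Both treatments were set against the same 2 Control libraries.

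The counts changed when all lists were cut to equal length. With 18887 regions per list, IL6 was the member above Control in TPA (1 of 5, against 12.1% of genes), while CXCL2, CXCL3 and NFKBIA lay below (3 of 5, against 35.7%). With ZnCl2, 0 of 4 members lay above Control (21.9% of genes), and CXCL2 and NFKBIA lay below (2 of 4, against 16.9%). IL6 was above ZnCl2 in TPA (1 of 4, against 15.8%), and CXCL3 was above TPA in ZnCl2 (1 of 4, against 40.8%). The calls at CXCL8 and IL1A were not among the 18887 highest-scoring regions in any library.

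CXCL8 encodes interleukin-8, a chemokine that draws neutrophils, and is on chr4:73740519-73743716 on the plus strand. Its start was covered in neither ZnCl2 library and not in Control 1. Control 2 had a region of 1390 bp with a score of 36, at percentile 17.1, while TPA 1 had a score of 39 at percentile 26.3 and TPA 2 a score of 51 at percentile 48.7. Both TPA values were therefore above both Control libraries and both ZnCl2 libraries. The TPA calls were narrow, 390 and 410 bp, where the median call over a start was 1830 and 1880 bp in these libraries. They ran from -168 to 221 and from -178 to 231 bp around the start and so held both matches marked in its promoter, TGANTCA at -137 to -131 and GGANNTTCC at -91 to -83.
CXCL8 promoter, chr4:73740319-73740518, plus strand: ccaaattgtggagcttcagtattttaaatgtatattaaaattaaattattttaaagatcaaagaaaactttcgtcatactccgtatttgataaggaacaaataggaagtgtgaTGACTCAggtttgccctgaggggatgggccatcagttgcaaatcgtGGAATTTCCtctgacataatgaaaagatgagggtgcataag

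CXCL1, CXCL2 and CXCL3 are neighbouring, closely related genes whose products attract neutrophils through the receptor CXCR2. Their promoter windows are alike, 82.5% identical between CXCL1 and CXCL3, 73.8% between CXCL2 and CXCL3 and 71.9% between CXCL1 and CXCL2. With CXCL8 their identity was 45.2% to 47.9%. Whether reads that fit more than 1 copy made the scores less certain was not tested. CXCL1, CXCL2 and CXCL3 all hold the same run of κB letters about 70 bases before the start, shown in capitals for CXCL2 and CXCL3.
CXCL2 promoter, chr4:74099196-74099445, minus strand: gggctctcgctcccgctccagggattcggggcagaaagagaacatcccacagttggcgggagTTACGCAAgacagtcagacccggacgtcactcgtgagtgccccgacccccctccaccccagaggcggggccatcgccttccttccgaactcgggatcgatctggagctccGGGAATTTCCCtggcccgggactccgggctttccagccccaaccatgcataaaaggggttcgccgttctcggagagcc
CXCL3 promoter, chr4:74038690-74038939, minus strand: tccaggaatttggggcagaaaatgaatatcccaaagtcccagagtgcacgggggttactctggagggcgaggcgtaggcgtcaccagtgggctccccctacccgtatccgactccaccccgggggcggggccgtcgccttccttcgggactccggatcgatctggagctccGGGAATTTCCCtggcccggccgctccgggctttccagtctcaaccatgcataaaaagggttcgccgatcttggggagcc
Despite this likeness their starts differed in accessibility. CXCL1 (chr4:73869393-73871308, plus strand) was covered in 2 libraries, at percentile 24.5 in Control 2 and 12.6 in TPA 2, and had no other call in its window.

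CXCL2 (chr4:74097040-74099196, minus strand) was open at its start in 5 libraries. Its percentile was 27.7 and 63.9 in Control, 39.6 and 47.0 in TPA and 36.4 in ZnCl2 1, with no call in ZnCl2 2. The TPA values fell inside the Control range (43.3 ± 5.29 against 45.8 ± 25.6, n = 2, exact p = 1). By place, however, both Control libraries (17284 and 15743) were nearer the top than TPA (21003 and 21219) and ZnCl2 1 (23452). CXCL3 (chr4:74036589-74038807, minus strand) was open in all libraries, with percentiles of 52.4 and 69.0 in Control, 0 and 36.3 in TPA and 68.4 and 62.1 in ZnCl2. Both TPA libraries were below all 4 others, and in TPA 1 the region was at the lowest score of the list. The mean was 18.2 ± 25.7 in TPA and 60.7 ± 11.7 in Control, a difference of -42.5 points (n = 2, exact p = 0.33), and 65.3 ± 4.46 in ZnCl2. By place the order was the same, 11352 and 13495 in Control, 34686 and 25534 in TPA and 11725 and 6884 in ZnCl2. A further region 4.8 kb downstream of the CXCL3 start was called in TPA 2, at percentile 9.73, and in no other library. The gene with the most similar 6 percentiles, among 8609 compared, was SLC4A11, at a Euclidean distance of 13.2 points.

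The accessible site 10.6 kb upstream of CXCL2 behaved differently from its start. This intergenic region (chr4:74108531-74111090, hg38) was open in all 6 libraries, at percentile 52.4 and 76.0 in Control, 80.8 and 84.9 in TPA and 45.1 and 25.3 in ZnCl2. The 3 conditions did not overlap, with TPA highest and ZnCl2 lowest. The mean was 82.8 ± 2.88 in TPA, 64.2 ± 16.7 in Control and 35.2 ± 14.0 in ZnCl2 (n = 2, exact p = 0.33 for each pair). Places gave the same order, 6649 and 6037 in TPA, 11352 and 10462 in Control and 20270 and 13464 in ZnCl2. The region extends past the edge of the CXCL2 window. The 300 bases at the centre of the stretch open in every library lie beyond that edge and held TTGCNNAA and neither κB form. Of 49527 region centres, 14.8% held TTGCNNAA, 8.59% the κB consensus and 3.84% GGANNTTCC.
CXCL2 upstream region, chr4:74109481-74109780, minus strand: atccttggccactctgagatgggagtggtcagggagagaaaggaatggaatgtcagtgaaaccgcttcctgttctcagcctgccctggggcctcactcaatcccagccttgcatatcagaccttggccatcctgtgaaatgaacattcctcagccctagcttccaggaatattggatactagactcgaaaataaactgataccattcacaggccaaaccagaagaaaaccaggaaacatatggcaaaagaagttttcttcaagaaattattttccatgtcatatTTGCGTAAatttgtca

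CCL20 (chr2:227805739-227817564, plus strand) encodes a chemokine for dendritic cells and some lymphocytes that bear CCR6. No library had a region over its start, although the promoter holds a κB consensus match at -79 to -70.
CCL20 promoter, chr2:227813592-227813821, plus strand: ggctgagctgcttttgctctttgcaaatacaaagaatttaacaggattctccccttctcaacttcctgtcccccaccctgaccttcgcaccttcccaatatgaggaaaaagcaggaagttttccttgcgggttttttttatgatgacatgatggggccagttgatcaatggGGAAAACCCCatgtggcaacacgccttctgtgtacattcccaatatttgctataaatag
Its accessible site was at or beyond the other end of the gene. A region 4.8 kb downstream of the start (chr2:227817401-227819950) was open in all libraries. The ZnCl2 1 call reached the 3′ end of the gene, while the calls of all other libraries lay wholly beyond it. The percentile of this region was 79.9 and 92.2 in Control, 89.3 and 96.3 in TPA and 67.5 and 35.2 in ZnCl2. Both ZnCl2 libraries were below all others (51.4 ± 22.8 against 86.0 ± 8.67 in Control, n = 2, exact p = 0.33), while TPA and Control overlapped. In TPA 2 it was placed 1474 of 41376 regions, against 12025 of 38069 in ZnCl2 1 and 11618 of 18887 in ZnCl2 2. The centre of this region held TGANTCA, a motif present in 27.0% of 49527 region centres.
CCL20 downstream region, chr2:227818391-227818690, plus strand: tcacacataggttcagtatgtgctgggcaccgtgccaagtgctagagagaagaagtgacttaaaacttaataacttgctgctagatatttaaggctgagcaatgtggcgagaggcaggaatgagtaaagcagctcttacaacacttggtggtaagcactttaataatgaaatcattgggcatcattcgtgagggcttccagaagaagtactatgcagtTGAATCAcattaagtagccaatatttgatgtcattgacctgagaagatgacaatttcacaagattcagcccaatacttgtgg
A weaker region 17 kb upstream was called in Control 2 and in both TPA libraries, at percentiles 39.5, 15.9 and 27.9.

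IL6 encodes interleukin-6, a cytokine of fever and the acute-phase response, and lies on chr7:22725884-22732002 on the plus strand. Its start was open in Control 2 at percentile 44.2, in TPA at 53.7 and 56.0 and in ZnCl2 1 at 23.6, with no call in Control 1 or ZnCl2 2. The TPA values were above all others, and they were the ones that stayed apart from Control with equal lists. This rests on the canonical start. The gene record begins 1316 bp further upstream, and that base was covered in ZnCl2 1 and in no other library. The promoter holds a κB match at -73 to -64 and TTGCNNAA at -155 to -148, both inside the 4 calls.
IL6 promoter, chr7:22726950-22727146, plus strand: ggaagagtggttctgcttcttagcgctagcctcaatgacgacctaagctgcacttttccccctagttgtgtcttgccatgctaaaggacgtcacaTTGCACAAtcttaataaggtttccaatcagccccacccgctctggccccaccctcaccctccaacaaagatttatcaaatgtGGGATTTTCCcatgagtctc
A second region in the IL6 window, 3.9 kb downstream of the start within the gene (chr7:22730511-22731660), was open in 5 libraries. Its percentile was 47.9 and 64.7 in Control, 85.3 and 81.0 in TPA and 49.9 in ZnCl2 1, with no call in ZnCl2 2. TPA was above Control in both libraries (83.2 ± 3.02 against 56.3 ± 11.9, n = 2, a difference of 26.9 points, exact p = 0.33). Its place was 5055 and 7588 in TPA, 12482 and 15328 in Control and 18543 in ZnCl2 1. The call was 640 and 680 bp wide in TPA, 600 and 1140 bp in Control and 620 bp in ZnCl2 1. A region 8.9 kb upstream of IL6, in an intron of STEAP1B, had percentiles of 34.2 and 72.7 in Control, 71.3 and 62.4 in TPA and 25.8 in ZnCl2 1, with no call in ZnCl2 2. ZnCl2 was below both Control libraries there, and TPA overlapped Control.

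IL1A and IL1B encode the 2 forms of interleukin-1, cytokines that start inflammatory responses through one receptor. Neither promoter held a κB form, and IL1A held TGANTCA at -12 to -6.
IL1A promoter, chr2:112784494-112784743, minus strand: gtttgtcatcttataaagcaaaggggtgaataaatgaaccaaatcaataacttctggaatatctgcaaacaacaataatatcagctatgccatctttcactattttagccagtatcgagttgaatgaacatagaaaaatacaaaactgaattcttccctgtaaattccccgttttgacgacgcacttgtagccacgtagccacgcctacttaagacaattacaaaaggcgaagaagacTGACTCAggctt
IL1A (chr2:112773925-112784493, minus strand) was open at its start in both TPA libraries and in ZnCl2 1. In TPA 2 the call was 1750 bp wide, at percentile 23.3, and in ZnCl2 1 it was 1950 bp wide and at percentile 0. In TPA 1 the start lay in a call of 21500 bp, from -17997 to 3502 bp, at percentile 35.4, which also took in a separate site about 10 kb upstream. That upstream site was called on its own in Control 1, Control 2, TPA 2 and ZnCl2 1, at percentiles 20.4, 36.0, 38.3 and 21.2. The value of TPA 1 at the IL1A start is therefore that of a wide block, and with calls over 10 kb left out, an alternative added after seeing the data, 2 members rather than 3 lay above Control in TPA. IL1B (chr2:112829751-112836816, minus strand) was open in Control 2 at percentile 24.5 and in TPA 1 at 0, with no call in the other 4 libraries.

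A region 20.9 kb downstream of the IL1A start was open in all libraries, at percentiles 90.4 and 90.5 in Control, 88.4 and 79.7 in TPA and 89.0 and 78.7 in ZnCl2. It extends past the edge of the IL1A window and covers the start of the neighbouring gene CKAP2L, which encodes a protein of the mitotic spindle. Both treatments were below both Control libraries by percentile (90.5 ± 0.114 in Control, 84.0 ± 6.16 in TPA and 83.9 ± 7.25 in ZnCl2, n = 2, exact p = 0.33 for each treatment), but by place they overlapped Control.

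**Figure D3:**
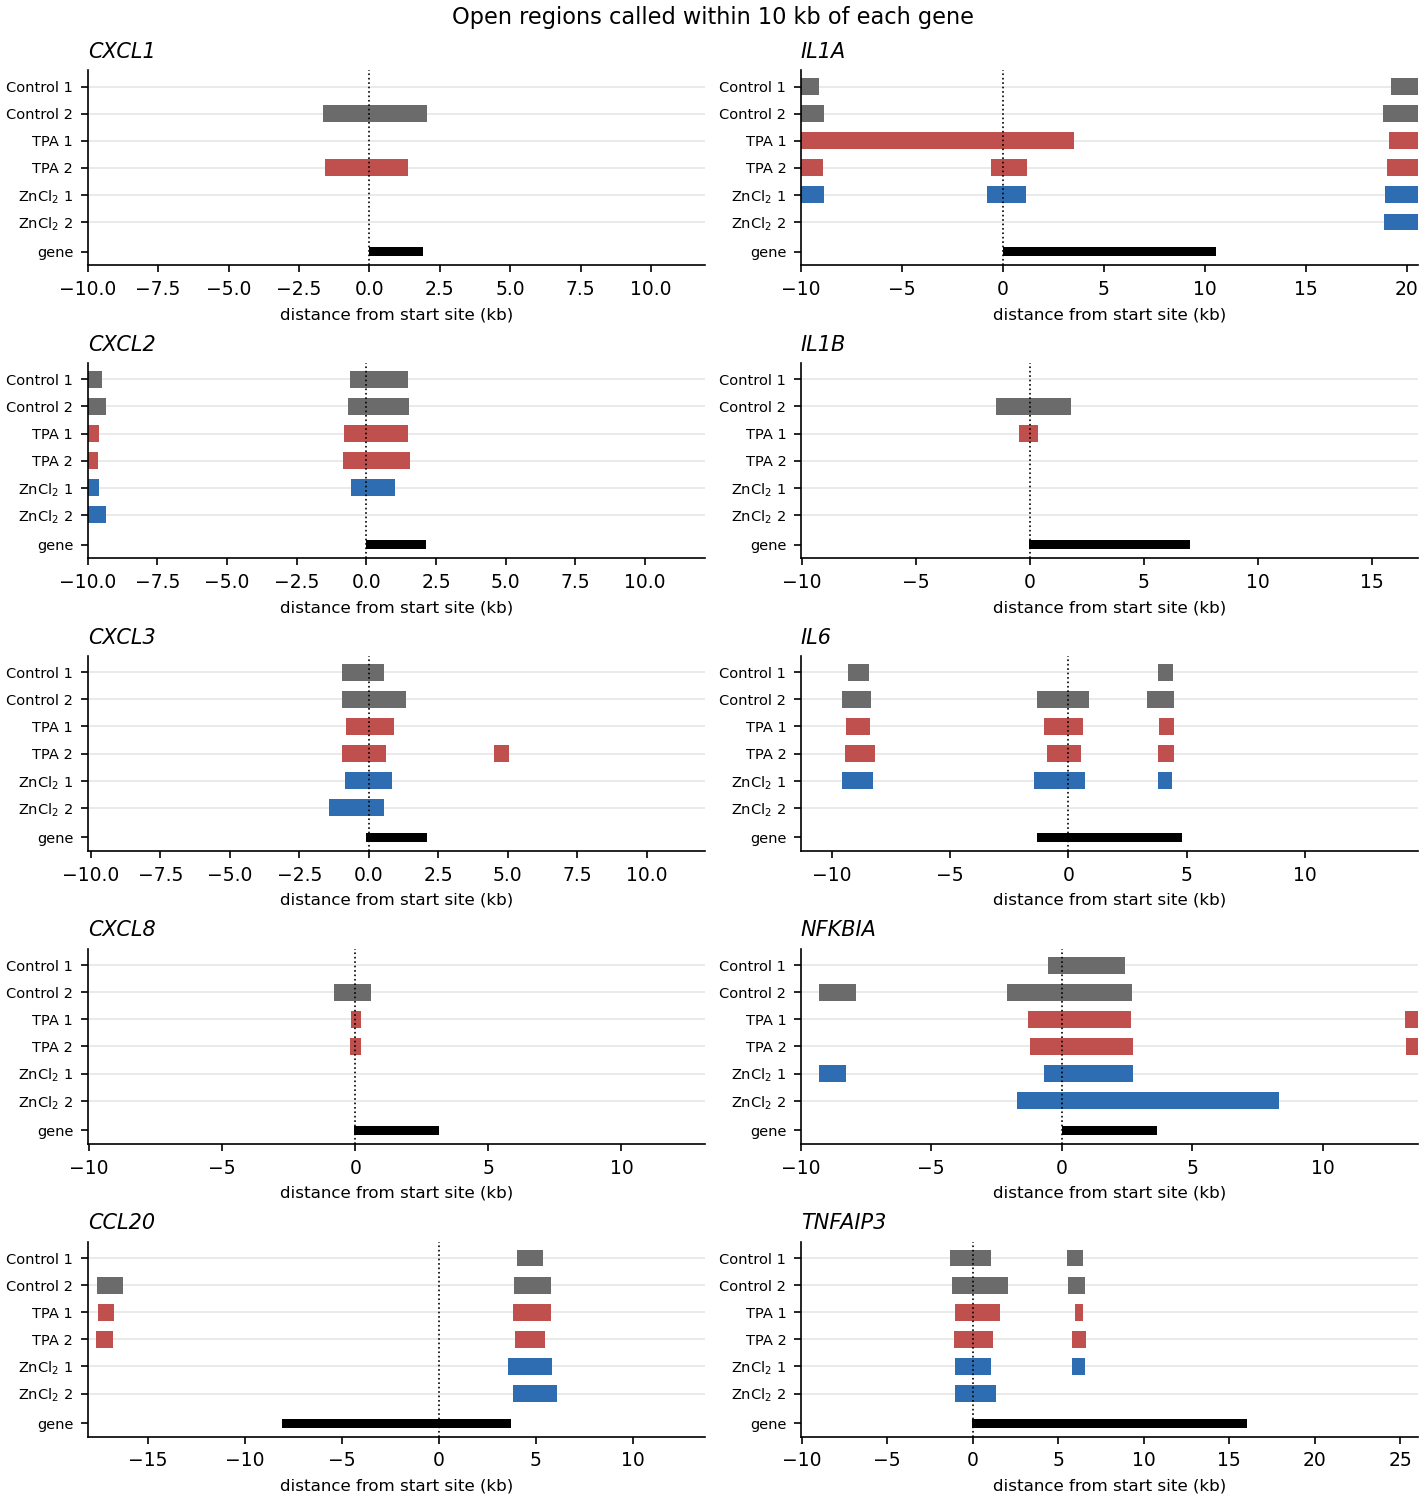
Open regions called within 10 kb of each gene, by distance (kb) from its start site, which the dotted line marks, with transcription running to the right. Each row is a library, in grey for Control, red for TPA and blue for ZnCl2, the black bar is the gene, and calls reaching past the window are cut at its edge; the 21500 bp call at IL1A in TPA 1 and the 10040 bp call at NFKBIA in ZnCl2 2 stand out by width.

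The feedback genes had the highest percentiles of the members at their start in 5 libraries, and in ZnCl2 2 NFKBIA tied with CXCL3 below TNFAIP3. NFKBIA (chr14:35401079-35404749, minus strand) had percentiles of 81.7 and 91.3 in Control, 72.2 and 84.3 in TPA and 82.1 and 62.1 in ZnCl2. The ranges overlapped for every pair of conditions (86.5 ± 6.79 in Control, 78.2 ± 8.51 in TPA and 72.1 ± 14.2 in ZnCl2, n = 2, exact p = 0.667 for each pair). By place, however, both Control libraries (4380 and 3777) were nearer the top than TPA (9594 and 6269) and ZnCl2 (6632 and 6884). The call in ZnCl2 2 was 10040 bp wide, against 2970 to 4810 bp in the others. TNFAIP3 (chr6:137867214-137883314, plus strand) had percentiles of 80.8 and 84.1 in Control, 82.9 and 85.9 in TPA and 89.8 and 68.0 in ZnCl2, so that ZnCl2 held both its highest and its lowest value. TPA and Control differed by 1.91 points (84.4 ± 2.15 against 82.5 ± 2.35, n = 2, exact p = 0.667). The genes with the most similar percentiles were CYREN for NFKBIA, at a distance of 6.06 points, and PIEZO1 for TNFAIP3, at 4.18 points. Both promoters hold paired κB matches, at -242 to -234 and -81 to -72 in NFKBIA and at -67 to -58 and -55 to -46 in TNFAIP3.
NFKBIA promoter, chr14:35404750-35404999, minus strand: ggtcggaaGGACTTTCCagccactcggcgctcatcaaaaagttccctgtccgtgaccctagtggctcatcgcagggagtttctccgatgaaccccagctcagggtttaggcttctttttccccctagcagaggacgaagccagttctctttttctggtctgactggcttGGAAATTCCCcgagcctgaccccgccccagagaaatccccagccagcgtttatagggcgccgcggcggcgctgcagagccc
TNFAIP3 promoter, chr6:137867009-137867213, plus strand: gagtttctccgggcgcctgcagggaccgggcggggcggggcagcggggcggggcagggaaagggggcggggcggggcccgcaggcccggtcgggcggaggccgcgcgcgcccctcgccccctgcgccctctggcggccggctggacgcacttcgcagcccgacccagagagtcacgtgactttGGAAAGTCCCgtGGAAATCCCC

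Beyond its start, TNFAIP3 had an intronic region 6.1 kb downstream (chr6:137872781-137873910), open in 5 libraries. Its percentile was 20.4 and 47.0 in Control, 56.6 and 32.2 in TPA and 43.5 in ZnCl2 1, and all pairs of conditions overlapped. It is shown because its centre was the one, of 6 centres of distal regions called in at least 5 libraries, that held both κB forms; 8.59% of all region centres held the consensus and 3.84% GGANNTTCC.
TNFAIP3 intronic region, chr6:137873331-137873630, plus strand: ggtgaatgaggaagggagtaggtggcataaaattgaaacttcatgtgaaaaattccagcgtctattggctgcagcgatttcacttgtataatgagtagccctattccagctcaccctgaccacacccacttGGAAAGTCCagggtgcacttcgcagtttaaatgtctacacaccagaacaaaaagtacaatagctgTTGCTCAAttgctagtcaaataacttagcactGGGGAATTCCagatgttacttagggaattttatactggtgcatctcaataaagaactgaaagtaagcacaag
NFKBIA had a region 13.6 kb downstream in both TPA libraries and no other, at a score of 30 in both, the lowest a list holds. Another, 8.6 kb upstream, was called in Control 2 and ZnCl2 1, at percentiles 3.26 and 25.8.

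**Figure D4:**
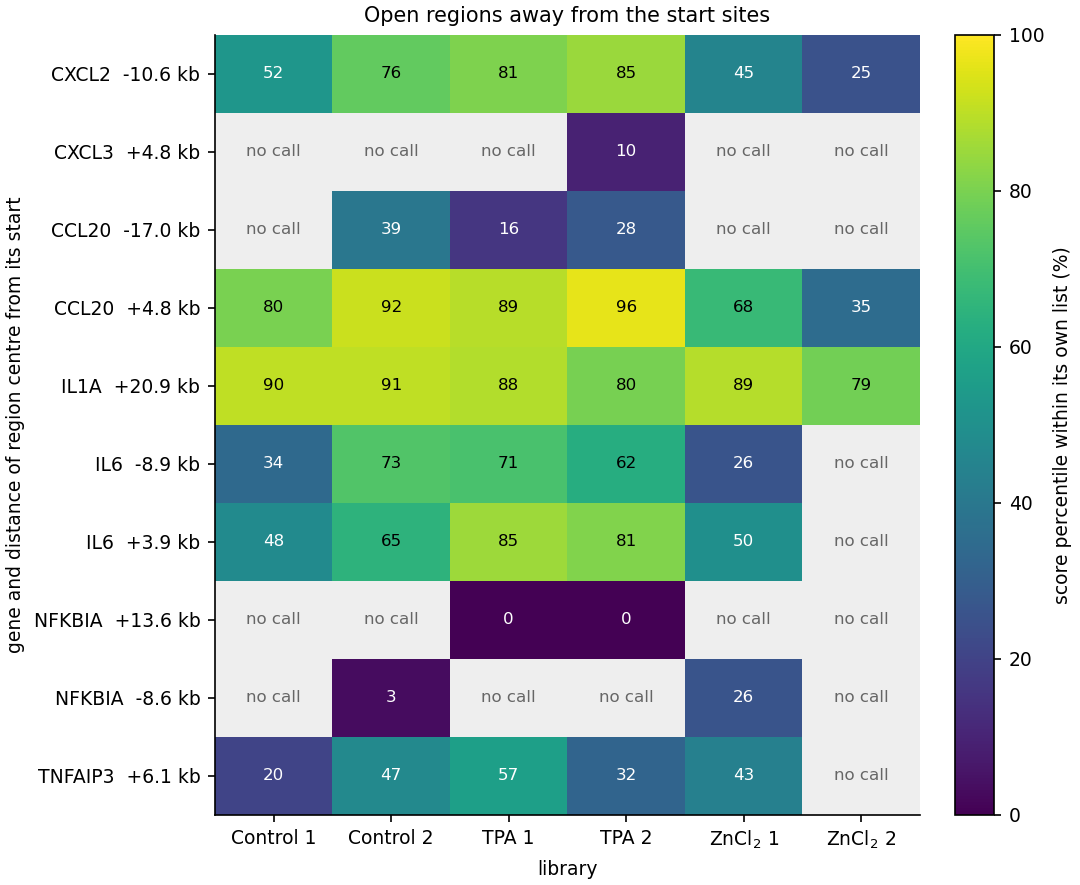
Score percentile (%) in each library (columns) of the 10 merged open regions that do not cover a member's start, labelled by gene and distance (kb) of the region's centre from the start, negative upstream. Grey cells had no call, and the regions 10.6 kb upstream of CXCL2 and 3.9 kb downstream of the IL6 start are higher in both TPA libraries than in every other library; the site about 10 kb upstream of IL1A is not drawn because the wide TPA 1 call joined it to the start.

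Across the windows, the 6 lists merged into 19 regions of 49527, of which 9 covered a member's start. Of these 19, 6 were open in all libraries, 31.6% against 32.0% of all merged regions. Open in both TPA and neither Control library was 1 of 19, the NFKBIA region at the score minimum (2.15% of all regions), and the reverse held for 0 (0.740%). For ZnCl2 against Control both counts were 0 of 17 (0.184% gained and 1.85% lost over all regions). Open in both TPA and neither ZnCl2 library were 3 of 19 (10.4%), at CXCL8, CCL20 (17 kb upstream) and NFKBIA (13.6 kb downstream), and the reverse held for 0 (1.06%).

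By percentile, 5 of 19 regions lay above both Control libraries in TPA, against 19.5% of all regions. They were the starts of CXCL8 and IL6, the IL6 region within the gene, the CXCL2 upstream region and the NFKBIA region just named. Below Control in TPA were 2 of 19 (7.38%), the CXCL3 start and the region over CKAP2L. In ZnCl2, 0 of 17 lay above Control (1.38%) and 4 below (11.6%), the sites away from the start at CXCL2 (upstream), CCL20 (downstream), IL1A (over CKAP2L) and IL6 (upstream). TPA lay above ZnCl2 in 10 of 19 (36.9%) and below in 1 (6.18%), the CXCL3 start. By place from the top, TPA was nearer than Control in 5 of 19 (23.8% of all regions) and Control nearer than TPA in 3 of 19 (14.3%). Control was nearer than ZnCl2 in 7 of 17 (16.1%), and ZnCl2 nearer than Control in 0 of 17 (11.0%).

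Of 64 other genes of the pathway, 31 were open at their start in all libraries, 20 in none and 13 in some. Of all protein-coding genes, 43.0% were open in all and 36.9% in none. Higher in TPA than in Control were 7 of 44 with a call, against the 10.7% of all genes, and as many were lower, against 19.4%. Among the higher ones were NFKBIE, an IκB inhibitor like NFKBIA, whose percentile was 66.1 and 77.8 in Control and 87.4 and 81.7 in TPA, and CSF3, which encodes the growth factor G-CSF, with no call and 34.3 in Control and 45.1 and 43.7 in TPA. LCN2, which encodes an iron-scavenging protein, had no call in Control and 45.1 and 15.5 in TPA. Lower in TPA were IER3, SOD2 and CFB among the target genes and the receptors IL1R1 and TLR5. IER3, an early response gene, had 80.8 and 90.8 in Control and 64.7 and 56.0 in TPA. With ZnCl2, IL1R1, the interleukin-1 receptor, and NFKBIZ, a nuclear IκB protein named after its values were seen, were the 2 of 44 above Control, against 2.03% of all genes, and 7 of 44 were below, against 11.0%. IL1R1 had 42.6 and 61.2 in Control and 82.6 and 69.3 in ZnCl2. Those 7 included TAB2 and IKBKB of the kinase complexes, IRAK1 of the receptor adaptors and ZC3H12A, an RNase that limits cytokine mRNA. With 18887 regions per list these counts changed, to 5 of 35 higher and 10 of 35 lower in TPA (12.1% and 35.7% of all genes) and to 8 of 38 higher and 7 of 38 lower in ZnCl2 (21.9% and 16.9%). CSF3, LCN2 and CFB were then no longer apart from Control in TPA, nor IRAK1 and ZC3H12A in ZnCl2. None of the 7 other chemokines listed was open at its start in any library, as was the case for 36.9% of all protein-coding genes.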

How the data were processed

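ATAC-seq was performed on 6 MCF10A libraries, 2 each of Control, TPA and ZnCl2. The authors trimmed adapters with BBDuk, mapped reads to hg38 with HISAT2 (version 2.1.0 in the submitters' processing notes, with FastQC 0.11.8 and SAMtools 1.8) and called open regions with HMMRATAC per library without pooling. Its version and settings are not given in the sources used here. The deposited lists hold a position and a score per region, a whole number whose kind is not stated. Later steps of the study (merging, blacklist removal and counting of reads) were not used here. Because scores of different lists need not share a scale, they were used within a list alone, as percentiles and places.

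Contigs other than chromosomes 1 to 22, X and Y were left out, and overlap meant at least 1 bp. All lay within the hg38 chromosome lengths. A condition was called above another when both its libraries exceeded both of the other, with no call ranked below any call. The share of all genes or regions called so is given beside the main counts. Most counts under the alternatives named below are given without it. Values per library were compared by two-sided exact permutation tests (smallest p 0.33, or 0.5 with replicate numbers as blocks). Members and gene lists were chosen with earlier results of these data known. The text names all members, the 12 pathway genes with the largest difference from Control among those that did not overlap it, NFKBIZ in addition, and the gene most similar to each member open in all libraries. Alternatives were lists of equal length, the upper 50% by score, places, other windows and start definitions, a 50% coverage minimum, leaving out each library and replicate blocks. Procedures were run on simulated data with planted changes. The simulation did not copy the differing list lengths or the replicate spread seen here. It therefore does not show how often the calls reported here are false. Not every promoter or region sequence is reported here. Computation used Python 3.11.15, NumPy 2.4.6, pandas 2.3.3 and Matplotlib 3.10.9.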

Additional observations from a re-analysis of the deposited data

How the results depend on the processing

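With 2 libraries per condition no permutation test could pass 0.05, and the lists hold no depth. The shortest lists, ZnCl2 2 and Control 1, had the fewest members open at the start, 3 and 4. ZnCl2 1, with 38069 regions, had 6 open and TPA 1, with 35902, had 8. The part of list length in these counts was not tested. The cause of the changes below was not tested unless named. Counts below are given without the share over all genes or regions, so they cannot be read as a trait of the members. With equal list lengths the difference in members open at the start became -1 for TPA minus Control and 0 for TPA minus ZnCl2, and with the upper 50% by score -0.5 and 0. The open share of the windows became -1.06 and -0.383 percentage points for TPA minus Control under these settings, and -0.541 and -0.103 for TPA minus ZnCl2. With calls over 10 kb left out, chosen after seeing the data, it was -0.649 for TPA minus Control, which removed the 21500 bp call. Members above Control in TPA numbered 1 with equal lists, members below numbered 3 by place and 3 with equal lists, members below Control in ZnCl2 numbered 2 under both, and members above ZnCl2 in TPA numbered 1 with equal lists. With the gene record start, which no TPA call covered at IL6, members above Control in TPA numbered 2 and members above ZnCl2 in TPA 3. Regions open in TPA and not in Control numbered 0 within 2 kb and 2 within 50 kb, and those open in Control and not in TPA 2 with equal lists, 1 in the upper 50% and 1 within 50 kb. Regions open in Control and not in ZnCl2 numbered 3 with equal lists and 1 in the upper 50%, those open in TPA and not in ZnCl2 1 within 2 kb and 8 within 50 kb, and the reverse 1 with equal lists and 1 in the upper 50%.

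Leaving out each library in turn, the difference in members open ranged from 0 (without Control 1) to 4 for TPA minus Control and from -3.5 to 0.5 (without Control 2) for ZnCl2 minus Control, and from 2 (without ZnCl2 2) to 5 for TPA minus ZnCl2. The open share ranged from -1.73 (without Control 1) to 5.53 points, from -5.35 to 1.92 points (without Control 2) and from 2.06 (without TPA 1) to 5.17 points. Members above Control in TPA ranged from 3 to 5, members below from 1 to 5, members above Control in ZnCl2 from 0 to 2, members below from 0 to 7, and members above TPA in ZnCl2 from 1 to 2; the counts of 5, 5 and 7 came without Control 2, Control 1 and Control 1. Regions open in TPA and not in Control ranged from 1 to 4 (without Control 2), the reverse from 0 to 1, those open in Control and not in ZnCl2 from 0 to 5 (without ZnCl2 1), those open in TPA and not in ZnCl2 from 3 to 9 (without ZnCl2 1), and the reverse from 0 to 1. Start-site differences in points ranged from -20.6 to 15.6 for CXCL2 (TPA minus Control), from -3.69 to 12.9 for CXCL3 (ZnCl2 minus Control), and from -3.89 to 16.1 for NFKBIA and -5.42 to 16.4 for TNFAIP3 (TPA minus ZnCl2). For TNFAIP3 (ZnCl2 minus Control) the range was -14.4 to 7.33. Without TPA 1 the CXCL2 difference was 1.25. In places nearer the top, NFKBIA changed to -1173.5 (TPA minus ZnCl2) and TNFAIP3 to -4.5, 952 and -956.5 (TPA minus Control, ZnCl2 minus Control, TPA minus ZnCl2). The CXCL3 difference between TPA and Control was negative under each alternative run and, with 1 library left out, ranged from -60.7 (without TPA 2) to -24.3 points (without TPA 1).

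The numbers share no stated source, and same-numbered libraries deviated together weakly or inversely (correlation over 8613 genes 0.170 for TPA and Control, -0.460 for ZnCl2 and Control, -0.134 for TPA and ZnCl2). With the replicate number as a block, members below Control in TPA numbered 2, and regions per pair averaged 3.5 open in TPA and not in Control, 1 the reverse, 1 open in ZnCl2 and not in Control, 5.5 the reverse, 7.5 open in TPA and not in ZnCl2 and 0.5 the reverse. Under a block with the numbers crossed, chosen after seeing the data, members below Control in ZnCl2 numbered 2, and regions averaged 4.5 open in Control and not in ZnCl2, 7.5 open in TPA and not in ZnCl2 and 0.5 the reverse.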
